A study of Mus musculus with 16 samples.

Results

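The levels of 10 genes that are commonly used as internal references were read in mouse colonic mucosa, inflamed or healthy, to see how steady each was: Actb, B2m, Gapdh, Gusb, Hprt1, Ipo8, Pgk1, Polr2a, Tbp and Tfrc. They were chosen by the gene name of their assays, which gave 15 assays of 648 and 10 genes of 584 on an inflammation panel for quantitative PCR. Gusb had 3 assays and Hprt1, now named Hprt, had 4, and these were averaged. The other 8 genes had 1 assay each.

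The 16 samples of total RNA fell into 4 groups of 4. Mice of the DNBS_CEC group received CEC by mouth, an abbreviation that is not explained, and dinitrobenzene sulfonic acid (DNBS) intrarectally, where this hapten induces colitis. DNBS_Nissle mice received intrarectal DNBS and oral Nissle, a probiotic strain of Escherichia coli. DNBS mice received intrarectal DNBS and oral phosphate-buffered saline (PBS), and healthy mice received PBS by both routes. By their numbers the samples were DNBS_CEC 1, 2, 6 and 8, DNBS_Nissle 1, 4, 5 and 7, DNBS 2, 3, 4 and 5, and healthy 3, 4, 5 and 6, and values are listed in this order. Strain, sex, age and the time after DNBS are not given in the sources used here. According to the series description RNA of the mice was pooled in equal amounts, while each sample carries its own number, so p-values measure only the spread between samples, which may be technical. Of the epithelial marker list 1 of 7 genes was on the panel: Krt8, a keratin of simple epithelia, was detected in all 16 samples, at 14.62 to 18.16 cycles. A single gene cannot settle what the tissue held. The 4 fat cell markers tested were also detected in all 16 samples. Fabp4 lay at 17.04 to 20.31 cycles, Cfd at 18.43 to 22.65, Adipoq at 19.72 to 25.36 and Retn at 20.71 to 25.77. No B cell marker of the list used was on the panel.

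Housekeeping genes serve functions that nearly every cell needs, and quantitative PCR uses them to correct for how much RNA or cDNA went into each reaction. That use assumes that the chosen gene does not itself move with the condition. In colitis, where immune cells enter the mucosa and epithelium can be lost, this cannot be taken for granted, because a gene can differ in level between cell types. In bulk mucosa fewer cells of a type and less RNA per cell cannot be told apart. Beside the general genes, this set holds a pair with known ties to inflammation and iron: B2m, the light chain of class I histocompatibility molecules, and Tfrc, the transferrin receptor through which dividing cells take up iron.

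The deposited value is the raw cycle threshold (Ct), the PCR cycle at which an assay's fluorescence crosses its threshold. It has no normalization, and each cycle less stands for about double the template. All 15 assays were detected in all 16 samples, with gene values between 12.75 and 22.73 cycles, well inside the detection limit of 28 used here. A Ct also carries the efficiency of its assay, so levels were compared between samples and not between genes. Of the 240 Ct values of these assays 3 were exactly the average of the remaining samples in the group (within 2e-06) and were read as filled in, all of them in healthy sample 3: Actb and 2 of the 4 Hprt1 assays. A further 15 values (6.25%) had 4 decimals or fewer and may have lost digits in the deposited table. Over the whole panel 194 of 10368 values (1.87%) were filled in, of which 57 lay in healthy sample 3 and 61 in DNBS_Nissle sample 1. Each sample had 528 to 564 detected assays. DNBS_CEC sample 2 and DNBS_Nissle sample 4 stood apart in the distance between Polr2a and Pgk1, and differences that rest on them are also given without both.

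Raw Ct was lower, which means more template, in DNBS-treated than in healthy samples for all 10 genes, taking the mean of the 3 DNBS-treated groups. For B2m alone the sign turned when a sample was left out: the difference was 0.00070 without healthy sample 6. The mean Ct of the 10 was 18.33 ± 0.22 in DNBS_CEC, 18.39 ± 0.26 in DNBS_Nissle, 18.58 ± 0.22 in DNBS and 18.91 ± 0.22 in healthy samples (SD, n = 4 each). The gene differences had a median of -0.39 cycles, and the same median over all 469 genes tested was -0.36, with 76.8% of genes lower in Ct. The shift was thus shared with most of the panel. In limma, 1 of the 10 passed an adjusted p of 0.05 in this comparison, where 17 of the 469 genes (3.62%) passed, all with a lower Ct in DNBS-treated samples.

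Gusb, which encodes the lysosomal enzyme beta-glucuronidase, was that gene. Its Ct was 20.48, 20.39, 20.96 and 20.88 in DNBS_CEC samples, 20.65, 20.60, 20.88 and 20.28 in DNBS_Nissle samples, 20.78, 20.66, 21.24 and 20.65 in DNBS samples and 21.83, 21.25, 21.35 and 21.68 in healthy samples. All 12 DNBS-treated samples lay below all 4 healthy ones, the nearest being at 21.24 and 21.25, and this was so for 8 of 469 genes (1.71%) and for no other of the 10. Gusb averaged 20.68 ± 0.28 in DNBS_CEC, 20.60 ± 0.24 in DNBS_Nissle, 20.83 ± 0.28 in DNBS and 21.53 ± 0.27 in healthy samples (SD, n = 4 each). The difference between DNBS-treated and healthy samples was -0.82 ± 0.21 cycles (± SE, 95% confidence interval -1.27 to -0.38; limma adjusted p = 0.0381), or 1.77-fold (95% confidence interval 1.30 to 2.41) if each cycle doubles the template. An exact two-sided permutation test of the 12 against the 4 samples gave p = 0.0010989, the smallest that 1820 splits allow, and 0.0495 after adjustment over the 428 genes detected in all samples. Full separation of the samples fixes this p, so it adds no support beyond the separation, and 7 of the 428 genes had it. Each of the 3 Gusb assays was lower by itself in DNBS-treated samples, by differences of -0.85, -0.76 and -0.87 cycles. The DNBS-treated and healthy samples did not overlap with Mm00446953_m1 (highest DNBS-treated Ct 20.94, lowest healthy 20.95) and Mm03003537_s1 (21.08 and 21.29). They overlapped with Mm01197698_m1, where the highest DNBS-treated Ct was 21.79 and the lowest healthy 21.39.

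That call was narrow. Leaving out single samples in turn kept the Gusb difference between -0.92 and -0.72 cycles, but it passed in 5 of 16 such fits, with an adjusted p between 0.0512 and 0.163 without DNBS_CEC sample 1 or 2, DNBS_Nissle sample 1 or 7, DNBS sample 2, 3 or 5, or any of the 4 healthy samples. Group by group, Gusb differed from healthy by -0.85 ± 0.26 cycles in DNBS_CEC (adjusted p = 0.264), -0.92 ± 0.26 in DNBS_Nissle (0.0546) and -0.70 ± 0.26 in DNBS (0.228), none passing. In these comparisons, which share the 4 healthy samples, 0% (50 genes at an unadjusted p under 0.05), 3.84% and 0.213% of the panel passed and no member did. Gusb and Hprt1 lay wholly below healthy in Ct in DNBS_CEC, Gusb, Tbp and Tfrc in DNBS_Nissle, and Gusb in DNBS, where 8.53%, 14.7% and 10.2% of the panel did so.

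**Figure D1:**
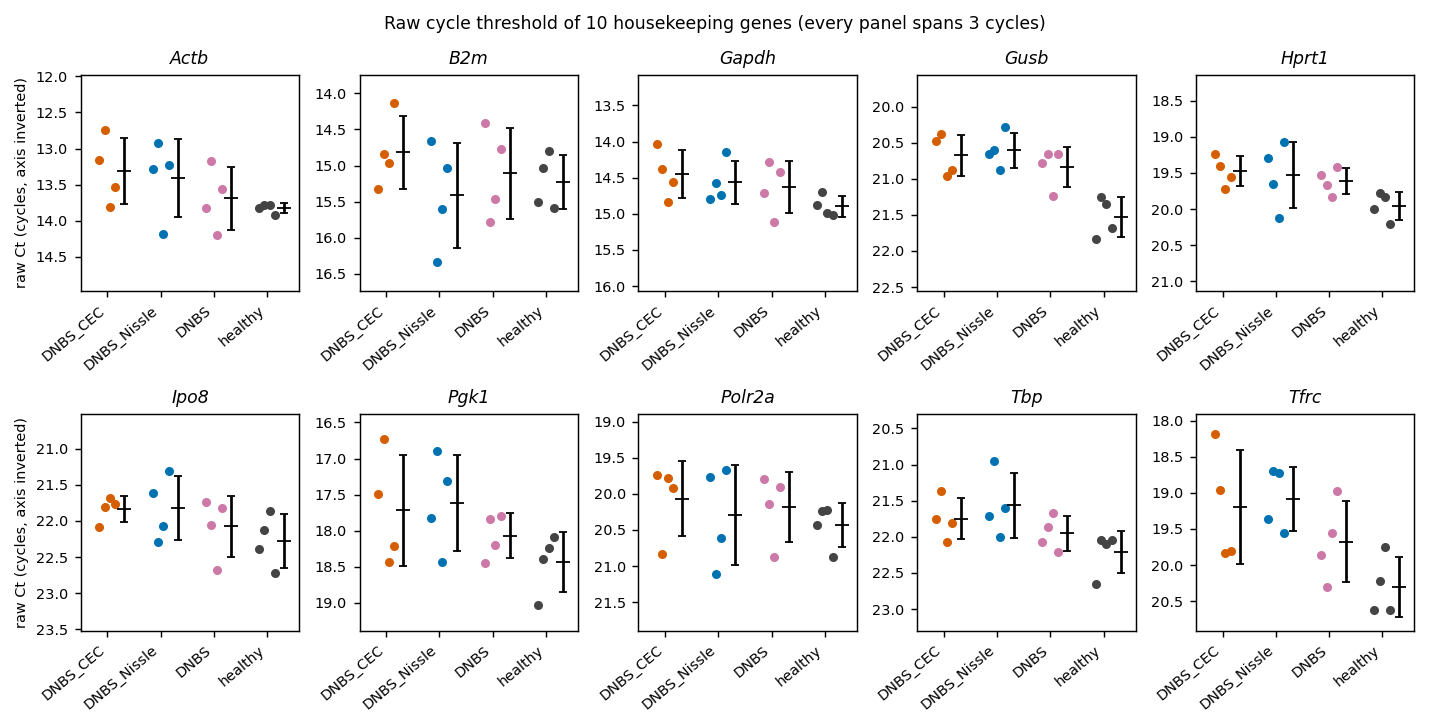
Raw Ct in cycles (vertical axes, inverted so that more template is higher) of the 10 genes in DNBS_CEC, DNBS_Nissle, DNBS and healthy samples. Points are single samples, and the bars are the mean and SD of 4. In the Gusb panel the 12 DNBS-treated points, 20.28 to 21.24, all stand above the 4 healthy points, 21.25 to 21.83, while in the other 9 panels the 2 sets overlap.

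The surface proteins of the set had the largest and the smallest raw difference. Tfrc had the largest of the 10, at -0.99 ± 0.33 cycles (± SE; adjusted p = 0.111). Its Ct was 18.19, 18.96, 19.83 and 19.81 in DNBS_CEC samples, 19.37, 18.69, 18.72 and 19.56 in DNBS_Nissle samples, 19.86, 20.31, 19.56 and 18.97 in DNBS samples and 20.63, 20.22, 19.75 and 20.62 in healthy samples. The lowest Ct was in DNBS_CEC sample 1, 3 of the 4 healthy samples were at 20.22 or above, and 4 of the 12 DNBS-treated samples reached into the healthy range. B2m had the smallest difference, -0.12 ± 0.33 cycles (adjusted p = 0.841), or -0.22 ± 0.31 without DNBS_CEC sample 2 and DNBS_Nissle sample 4. Its Ct was 15.33, 14.84, 14.97 and 14.14 in DNBS_CEC samples, 14.67, 16.34, 15.60 and 15.04 in DNBS_Nissle samples, 14.41, 15.78, 15.47 and 14.78 in DNBS samples and 15.51, 15.03, 14.80 and 15.58 in healthy samples. The 4 DNBS_Nissle samples spanned the healthy range on both sides, and DNBS_Nissle sample 4 had the highest Ct of all 16.

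Gapdh and Pgk1 are consecutive enzymes of glycolysis, and Actb is cytoplasmic beta-actin. Gapdh had a Ct of 14.03, 14.38, 14.83 and 14.56 in DNBS_CEC samples, 14.79, 14.57, 14.74 and 14.14 in DNBS_Nissle samples, 14.71, 14.29, 15.11 and 14.43 in DNBS samples and 14.88, 14.70, 14.98 and 15.02 in healthy samples. Pgk1 had a Ct of 17.50, 16.73, 18.44 and 18.21 in DNBS_CEC samples, 17.82, 16.89, 18.43 and 17.32 in DNBS_Nissle samples, 18.44, 17.83, 18.19 and 17.80 in DNBS samples and 19.03, 18.39, 18.23 and 18.08 in healthy samples. Pgk1 was spread more widely than Gapdh, over 2.30 against 1.07 cycles, and its lowest values were in DNBS_CEC sample 2 and DNBS_Nissle sample 4. Actb had a Ct of 13.16, 12.75, 13.80 and 13.54 in DNBS_CEC samples, 13.28, 12.92, 14.18 and 13.23 in DNBS_Nissle samples, 13.82, 13.17, 14.20 and 13.56 in DNBS samples and 13.82, 13.78, 13.77 and 13.91 in healthy samples. The healthy values of Actb lay within 0.14 cycles of each other, 1 of them filled in, against 1.45 cycles over all 16 samples. Without the filled value healthy Actb was 13.82 ± 0.078 (SD, n = 3). The differences from healthy were -0.35 ± 0.22 cycles for Gapdh (adjusted p = 0.315), -0.64 ± 0.33 for Pgk1 (0.243) and -0.35 ± 0.26 for Actb (0.393). Without DNBS_CEC sample 2 and DNBS_Nissle sample 4 they were -0.34 ± 0.23, -0.44 ± 0.27 and -0.24 ± 0.24.

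Polr2a, the largest subunit of RNA polymerase II, and Tbp, the TATA-binding protein of its initiation complex, stand for transcription. Polr2a had a Ct of 19.74, 20.83, 19.78 and 19.92 in DNBS_CEC samples, 19.77, 21.11, 20.61 and 19.67 in DNBS_Nissle samples, 19.80, 20.14, 20.87 and 19.90 in DNBS samples and 20.43, 20.23, 20.22 and 20.87 in healthy samples. Tbp had a Ct of 21.75, 21.37, 22.07 and 21.81 in DNBS_CEC samples, 21.71, 20.95, 22.01 and 21.60 in DNBS_Nissle samples, 22.07, 21.86, 21.67 and 22.22 in DNBS samples and 22.65, 22.05, 22.11 and 22.04 in healthy samples. The Polr2a values of DNBS_CEC sample 2 and DNBS_Nissle sample 4 were the highest of their groups, while Tbp was lowest of its group in the same samples. Ipo8, a nuclear import receptor, had a Ct of 22.08, 21.80, 21.68 and 21.77 in DNBS_CEC samples, 21.61, 22.29, 22.08 and 21.31 in DNBS_Nissle samples, 21.74, 22.05, 22.68 and 21.82 in DNBS samples and 22.39, 22.13, 21.86 and 22.73 in healthy samples. Hprt1, the purine salvage enzyme, had a Ct of 19.24, 19.40, 19.72 and 19.55 in DNBS_CEC samples, 19.29, 19.65, 20.12 and 19.07 in DNBS_Nissle samples, 19.52, 19.66, 19.83 and 19.41 in DNBS samples and 19.99, 19.78, 19.83 and 20.21 in healthy samples. All 4 DNBS_CEC values of Hprt1 were below the healthy ones, while DNBS_Nissle sample 5 and DNBS sample 4 were inside the healthy range. Their differences from healthy were -0.26 ± 0.31 cycles for Polr2a, -0.45 ± 0.23 for Tbp, -0.37 ± 0.24 for Ipo8 and -0.42 ± 0.21 for Hprt1 (± SE; adjusted p = 0.601, 0.234, 0.338 and 0.242). Without both samples they were -0.43 ± 0.25 for Polr2a, -0.34 ± 0.20 for Tbp, -0.42 ± 0.24 for Ipo8 and -0.42 ± 0.22 for Hprt1, and no member of the set passed in that fit.

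To take out what a sample's genes share, each gene was also set against the mean Ct of the other 9, as that mean minus the gene's Ct. On this scale a higher value means more RNA, 1 unit is about a doubling, and a gene that lies later than the others is negative. Set against the others, 0 of the 10 genes passed in any of the 7 group comparisons or in the F test over the 4 groups. For the mean of DNBS-treated groups against healthy 9 of 469 genes (1.92%) passed, 7 higher and 2 lower, led by Nos2, S100a9, S100a8, Il15 and Cxcl5. Before adjustment 78 genes had a p under 0.05, and Gusb was the 1 member among these. The median over the panel was -0.11, against -0.09 for the 10 genes. Since each member is set against the other 9, the 10 differences sum to 0 by construction. Their mix of signs is thus set in advance, and their median is no finding about the set. Group by group against healthy, 0% of genes passed in DNBS_CEC (46 at an unadjusted p under 0.05), 2.13% in DNBS_Nissle and 0.213% in DNBS. In the comparisons among DNBS-treated groups 0% passed on either scale.

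Gusb lay apart from healthy on this scale too, without passing. It stood at -2.59, -2.49, -2.61 and -2.73 in DNBS_CEC samples, -2.62, -2.45, -2.38 and -2.40 in DNBS_Nissle samples, -2.51, -2.31, -2.62 and -2.56 in DNBS samples and -3.02, -2.77, -2.95 and -2.90 in healthy samples. All 12 DNBS-treated samples lay above all 4 healthy ones, as did 0.64% of the panel, and the difference was 0.39 ± 0.15 (± SE, 95% confidence interval 0.06 to 0.71; limma adjusted p = 0.229), or 1.31-fold. With single assays the sets overlapped in all 3 cases: the lowest DNBS-treated and the highest healthy value were -2.49 and -2.47 with Mm00446953_m1, -3.18 and -2.99 with Mm01197698_m1, and -2.83 and -2.77 with Mm03003537_s1. The exact permutation p of the averaged assays was again 0.0010989, with 0.0672 after adjustment over 428 genes. It was again fixed by the separation, and 7 of the 428 genes had it. Its difference from healthy was 0.30 ± 0.19 in DNBS_CEC, 0.45 ± 0.19 in DNBS_Nissle and 0.41 ± 0.19 in DNBS. Gusb did not overlap with healthy in any of the 3, a pattern shown towards higher levels by 0.853%, 7.46% and 4.69% of the panel. The raw difference of Gusb was thus made of a part shared with the other 9 genes, whose mean Ct also was lower in DNBS-treated samples, and this remainder.

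Neutrophil markers moved in the same direction between these groups. Of 8 listed genes 6 were on the panel and 4 were tested, all higher in DNBS-treated samples and 3 of them called: S100a8 (6.19 ± 1.28 log2 units; adjusted p = 0.0331), S100a9 (5.87 ± 1.20; 0.0331) and Ltf (3.33 ± 0.79; 0.0382), where 1.92% of the panel was called. With single samples left out in turn S100a8 and S100a9 passed in 10 of 16 fits and Ltf in 5, with adjusted p up to 0.133 and 0.180, and none of the 3 passed without any 1 of the 4 healthy samples, DNBS_Nissle sample 4 or DNBS sample 5. Ltf also did not pass without DNBS_CEC sample 1, DNBS_Nissle sample 1 or 7, or DNBS sample 2 or 3. Their differences stayed at 5.66 to 6.80, 5.37 to 6.25 and 3.03 to 3.64. The summed level of the neutrophil marker list, beyond these called genes, was taken relative to the mean of the 10 genes. It was 0.052 to 3.34 in DNBS_CEC, 3.02 to 6.52 in DNBS_Nissle, 0.288 to 37.3 in DNBS and 0.0191 to 0.0735 in healthy samples. Camp, a neutrophil granule peptide, was detected in 1 of 4 DNBS_CEC, 4 of 4 DNBS_Nissle, 3 of 4 DNBS and 0 of 4 healthy samples. These summed levels are on a linear scale. Gusb relative to the other 9 genes, in log2 units, ranged from -2.73 to -2.31 over the 12 DNBS-treated samples. The part of neutrophils in the Gusb difference was not tested. No gene passed in the other marker lists: 3 of 4 macrophage and monocyte markers on the panel (of 9 listed) had a higher mean in DNBS-treated samples, 0 of 2 T cell markers (of 7), 1 of 1 endothelial marker tested (of 6) and 0 of 4 fat cell markers tested (of 5). Krt8 differed from healthy by -0.29 ± 0.48, and its level relative to the 10 genes was 4.14 to 12.2 in DNBS_CEC, 1.18 to 11.3 in DNBS_Nissle, 5.92 to 11.8 in DNBS and 5.27 to 13.2 in healthy samples.

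**Figure D2:**
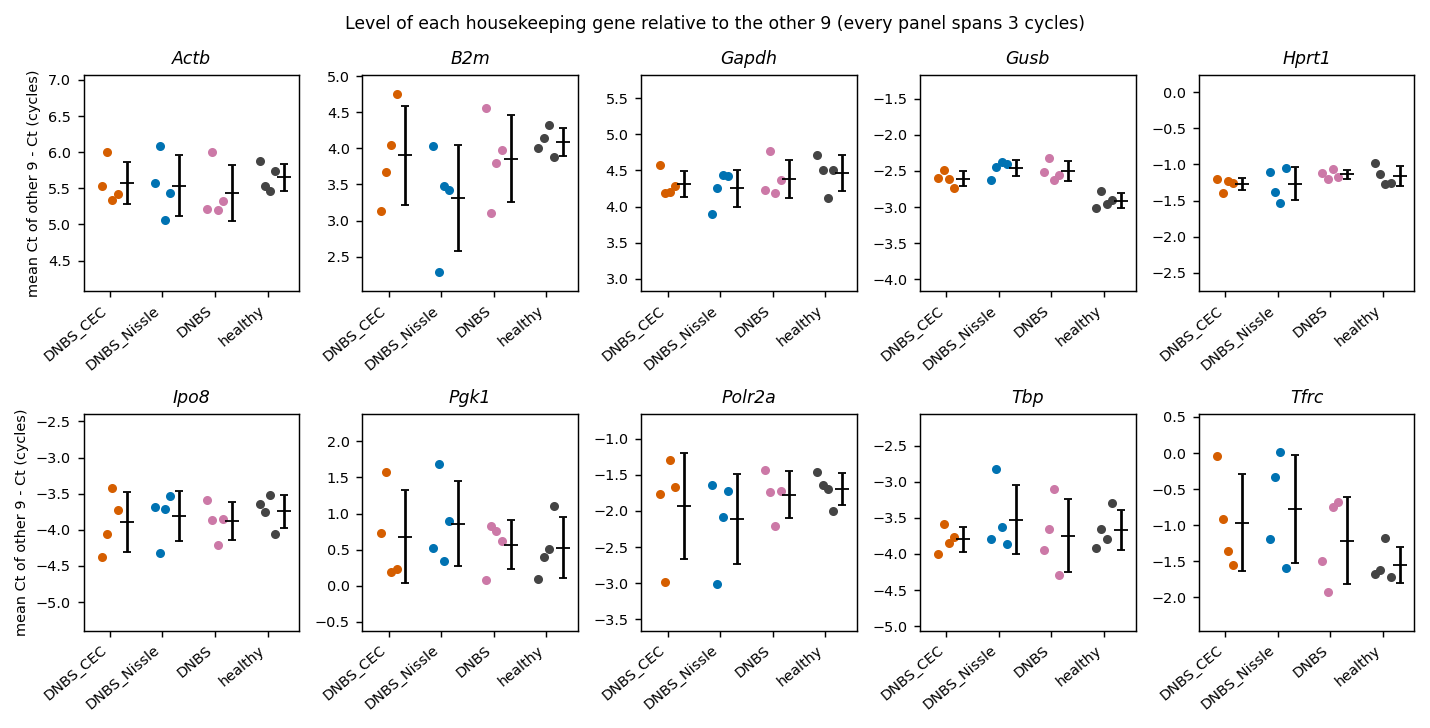
Level of each gene relative to the other 9 (mean Ct of the other 9 minus Ct, cycles, vertical axes) by group, with single samples as points and the mean and SD of 4 as bars. Gusb stands higher in all 12 DNBS-treated samples, -2.73 to -2.31, than in the healthy ones, -3.02 to -2.77, and Hprt1, the average of 4 assays, runs from -1.53 to -0.98.

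Tfrc and B2m had the widest spreads on this scale, with differences of opposite sign that did not pass. Relative to the others Tfrc stood at -0.04, -0.91, -1.35 and -1.55 in DNBS_CEC samples, -1.19, -0.33, 0.01 and -1.60 in DNBS_Nissle samples, -1.50, -1.93, -0.75 and -0.68 in DNBS samples and -1.68, -1.62, -1.18 and -1.72 in healthy samples. Its difference from healthy was 0.57 ± 0.34 (95% confidence interval -0.15 to 1.29; adjusted p = 0.427), and at least 1 sample of each DNBS-treated group was no higher than the highest healthy sample. B2m stood at 3.13, 3.67, 4.04 and 4.76 in DNBS_CEC samples, 4.03, 2.29, 3.48 and 3.43 in DNBS_Nissle samples, 4.56, 3.10, 3.79 and 3.97 in DNBS samples and 4.01, 4.14, 4.33 and 3.88 in healthy samples. Its difference from healthy was -0.40 ± 0.33 (-1.11 to 0.31; adjusted p = 0.574) over the DNBS-treated groups and -0.78 ± 0.41 in DNBS_Nissle, with DNBS_Nissle sample 4 the lowest of all 16. DNBS_CEC sample 8 and DNBS sample 2 were above every healthy sample, so DNBS-treated values of B2m lay on both sides of the healthy range.

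With all 16 samples Hprt1 and Tbp differed from healthy by -0.07 ± 0.16 (-0.41 to 0.27) and -0.02 ± 0.24 (-0.54 to 0.49) on this scale. Hprt1 stood at -1.21, -1.39, -1.23 and -1.26 in DNBS_CEC samples, -1.10, -1.38, -1.53 and -1.05 in DNBS_Nissle samples, -1.12, -1.20, -1.06 and -1.18 in DNBS samples and -0.98, -1.13, -1.27 and -1.26 in healthy samples. Its DNBS_CEC and DNBS samples did not overlap, all 4 DNBS_CEC samples being lower, as in 1.71% of the panel, at a difference of -0.13 ± 0.20. They nearly touched, at -1.207 in DNBS_CEC sample 1 and -1.204 in DNBS sample 3. Ipo8 differed from healthy by -0.12 ± 0.22, Actb by -0.13 ± 0.22, Gapdh by -0.14 ± 0.19, Pgk1 by 0.18 ± 0.30 and Polr2a by -0.24 ± 0.30. For 8 of the 10 genes the 95% confidence interval of the DNBS-treated against healthy difference lay within 1 log2 unit on either side of 0. For B2m and Tfrc it reached -1.11 and 1.29. Without DNBS_CEC sample 2 and DNBS_Nissle sample 4 the differences of Pgk1 and Polr2a were -0.01 ± 0.22 and -0.03 ± 0.19, that of B2m -0.26 ± 0.30, that of Tfrc 0.51 ± 0.36 and that of Gusb 0.37 ± 0.15. Those of Tbp, Actb and Gapdh were -0.13 ± 0.21, -0.24 ± 0.19 and -0.13 ± 0.19, and those of Hprt1 and Ipo8 both -0.04, with SEs of 0.15 and 0.20. The order of the small differences thus moved with these samples, and no member was called.

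**Figure D3:**
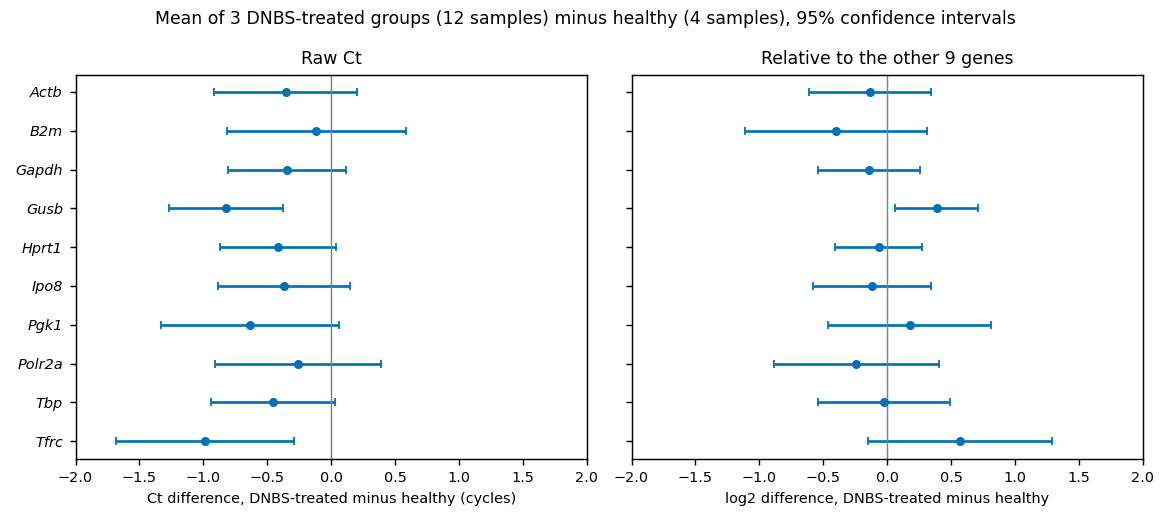
Difference between the mean of the 3 DNBS-treated groups (12 samples) and healthy (4 samples) for each gene, with 95% confidence intervals. In raw Ct (left, cycles) all 10 points are below 0 and the intervals of Gusb and Tfrc exclude it. Relative to the other 9 genes (right, log2 units) the points lie between -0.40 and 0.57 and the interval of Gusb alone excludes 0, before adjustment.

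Oral CEC or Nissle on top of DNBS gave no member that passed on either scale. In raw Ct the 10 differences ran from -0.48 to -0.11 cycles in DNBS_CEC against DNBS, and from -0.59 to 0.30 in DNBS_Nissle against DNBS. DNBS_CEC minus DNBS_Nissle ran from -0.59 to 0.18. Relative to the other 9 the 3 ranges were -0.16 to 0.25, -0.55 to 0.44 and -0.27 to 0.59. The interval stayed within 1 log2 unit for 9, 6 and 8 of the 10 genes on that scale, so for the remainder a difference of that size lies inside the interval. Among them was B2m, at -0.55 ± 0.41 (-1.42 to 0.32) in DNBS_Nissle against DNBS. At an unadjusted p under 0.05 the panel had 10, 14 and 22 genes in raw Ct and 16, 8 and 25 on the relative scale, and no member was among them.

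Stability was then described without groups, by the SD over samples of the Ct difference between a gene and each of the others, averaged over the other 9 (M, in cycles; a lower M is steadier). M was 0.387 for Hprt1, 0.413 for Gusb, 0.419 for Gapdh, 0.452 for Ipo8, 0.457 for Actb and 0.491 for Tbp. It was 0.563 for Pgk1, 0.578 for Polr2a, 0.672 for B2m and 0.686 for Tfrc, with a mean of 0.512 over the 10. Hprt1 and Gusb are averages of 4 and 3 assays, which tends to lower the SD, while the other 8 genes had 1 assay. With single assays M was 0.382 to 0.537 for Hprt1, first of the 10 with 3 assays and sixth with Mm01318743_m1, and 0.426 to 0.467 for Gusb, at rank 3 or 4. Gusb had a low M although its DNBS-treated and healthy samples lay apart. Relative to the other 9, its SD within groups was 0.112 cycles, the lowest of the 10, and the range of its 4 group means was 0.448. Hprt1 was low in both, at 0.144 and 0.133. Taking away the gene with the highest M step by step removed Tfrc, B2m, Polr2a, Pgk1, Tbp, Ipo8, Actb and Gusb in this order and left Gapdh and Hprt1, whose Ct difference had an SD of 0.229.

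Among the 428 genes of the panel detected in every sample, Hprt1 had the lowest SD relative to the reference genes, with Gusb at rank 10, Gapdh at 15, Ipo8 at 35, Actb at 40 and Tbp at 66. Pgk1 (137), Polr2a (143), B2m (205) and Tfrc (208) lay further on, and all 10 were below the panel median of 0.623 cycles. With 1 assay in place of the average, Hprt1 stood at rank 1, 4, 10 or 106 and Gusb at 14, 22 or 44, and 37 of the 428 genes had more than 1 assay. The members' values enter their own reference set, so these ranks describe the set and are no test. The non-members that followed the mean Ct of the 10 most closely over the 16 samples were Abcf1, a ribosome-associated ATPase (SD of the difference 0.156 cycles), H47, now Selenos, a selenoprotein of the endoplasmic reticulum (0.160), and Sdcbp, the adaptor syntenin (0.165). Of 12 other genes sold as endogenous controls 6 were on the panel and 0 were called, where 1.92% of the panel was, and their differences from healthy lay between -0.79 and 0.05. Some were too imprecise to place: Rplp2, a ribosomal stalk protein, differed by -0.79 ± 0.60, and Ywhaz, a 14-3-3 protein, by -0.60 ± 1.73, with Ct values between 17.90 and 26.83.

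**Figure D4:**
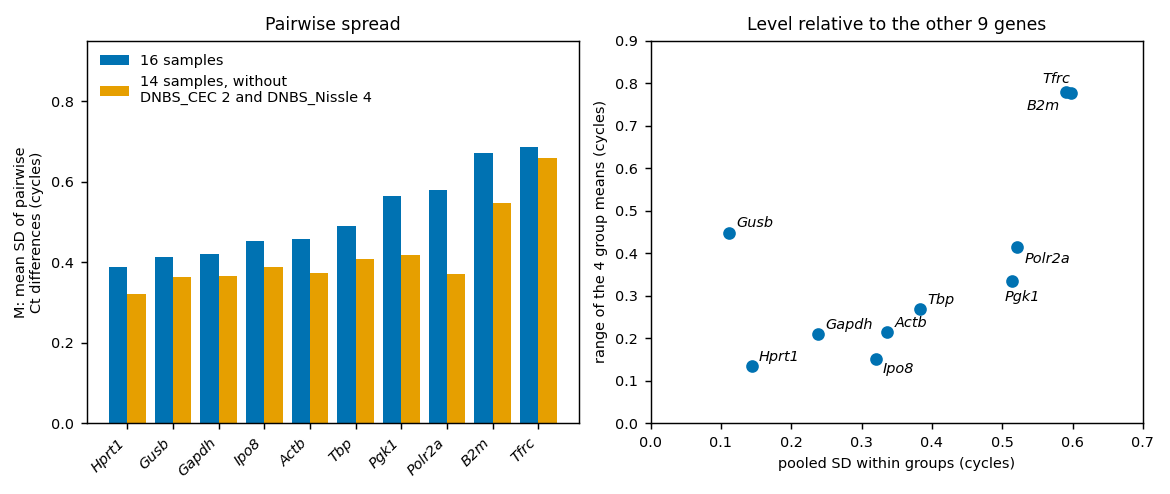
Left, M of each gene (mean SD of its pairwise Ct differences, cycles) over 16 samples and over 14 samples without DNBS_CEC sample 2 and DNBS_Nissle sample 4. Right, range of the 4 group means against the pooled SD within groups (both in cycles, relative to the other 9 genes): Gusb has the lowest SD (0.112) with a range of 0.448, and B2m and Tfrc are high in both.

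Within groups the 10 genes had the lowest spread against each other in healthy mucosa. The SD of pairwise Ct differences averaged 0.569 in DNBS_CEC, 0.612 in DNBS_Nissle, 0.476 in DNBS and 0.299 in healthy samples. Healthy samples had the lowest SD of the 4 groups for 5 of the 10 genes and the highest for 0, and over the panel the shares were 38.8% and 6.78%. The filled-in values of healthy sample 3 lie at the mean of the other 3 and lower the healthy SD by construction. Without that sample the healthy value was 0.278 (n = 3) and the healthy shares of the panel were 53.0% and 3.97%. From the assays with no filled-in value, 9 genes without Actb, the values were 0.604 in DNBS_CEC, 0.637 in DNBS_Nissle, 0.479 in DNBS and 0.301 in healthy samples. A lower spread in healthy samples was thus also seen in the panel at large, and no test was made of it. Without DNBS_CEC sample 2 the DNBS_CEC value was 0.472, and without DNBS_Nissle sample 4 the DNBS_Nissle value was 0.390 (n = 3 each). Both samples were picked for their distance between Polr2a and Pgk1, so leaving them out lowers these values in part by construction.

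In those samples Polr2a and Pgk1 lay far apart. The Ct of Polr2a minus that of Pgk1 was 2.24, 4.10, 1.34 and 1.71 in DNBS_CEC samples, 1.95, 4.22, 2.18 and 2.36 in DNBS_Nissle samples, 1.36, 2.31, 2.68 and 2.10 in DNBS samples and 1.39, 1.84, 1.98 and 2.79 in healthy samples. DNBS_CEC sample 2 and DNBS_Nissle sample 4 stood at 4.10 and 4.22 cycles, and the other 14 between 1.34 and 2.79 with a median of 2.04. Without both samples, which were picked for this distance, the mean M was 0.421, and Polr2a had 0.370 and Pgk1 0.417.

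Assays of 1 gene also differed between samples, most in DNBS_Nissle sample 4. Of the Hprt1 assays, Mm01318743_m1 minus Mm00446968_m1 was -0.42, 0.48, -0.03 and -0.11 in DNBS_CEC samples, -0.16, 1.40, -0.36 and -0.78 in DNBS_Nissle samples, -0.46, -0.20, 0.37 and -0.57 in DNBS samples and -0.03, -0.15, -0.24 and 0.37 in healthy samples. DNBS_CEC sample 2 and DNBS_Nissle sample 4 were the highest, at 0.48 and 1.40 cycles, with the other 14 between -0.78 and 0.37. For Gusb, Mm01197698_m1 minus Mm03003537_s1 was 0.63 in DNBS_CEC sample 2 and 1.21 in DNBS_Nissle sample 4, against -0.33 to 0.81 in the others, where DNBS sample 4 held the highest. The Hprt1 pair Mm01324427_m1 and Mm00446968_m1 kept 0.34 and 0.23 in these samples, against 0.15 to 0.51 in the others. An assay name ending in m1 marks a probe that spans an exon junction, and one ending in s1 marks primers and probe within a single exon. What set these samples apart was not tested.

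Disagreement between assays of 1 gene gives a scale for the differences between genes. Over the 9 pairs of assays within Gusb or Hprt1 the SD of the Ct difference over 16 samples ranged from 0.0921 to 0.519 cycles, with a median of 0.273. Over the 45 pairs of different genes it ranged from 0.229 to 0.942, with a median of 0.489. Hprt1 pairs with Mm01318743_m1 had SDs of 0.350 to 0.519, and Hprt1 pairs without it 0.0921 to 0.216, below every pair of different genes. The Gusb pairs had SDs of 0.210 to 0.426. Assays that read the same transcript, or parts of it, thus differed between samples. The overlap with the SDs between genes came from some of these pairs, which share assays.

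**Figure D5:**
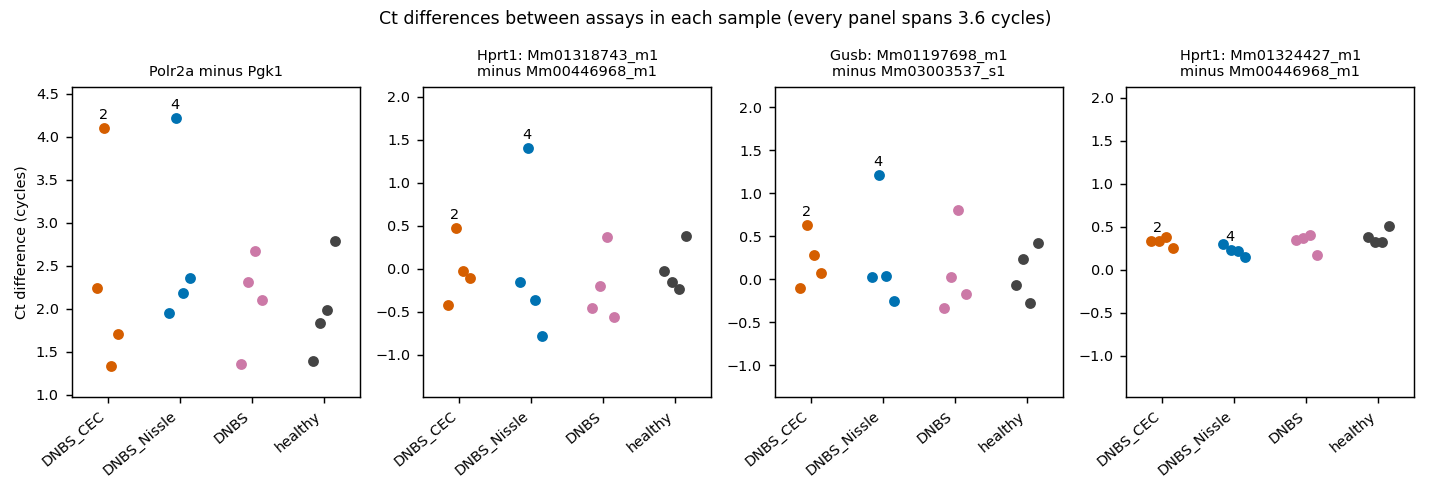
Ct differences between assays in each sample (cycles, vertical axes) by group: Polr2a minus Pgk1, then 1 pair of Hprt1 assays, 1 pair of Gusb assays and another Hprt1 pair. DNBS_CEC sample 2 and DNBS_Nissle sample 4 carry their numbers, and they stand at 4.10 and 4.22 in the first panel and at 0.34 and 0.23, inside the range of the others, in the last.

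The number of panel genes that passed differed between references. For DNBS-treated against healthy samples the mean of the 10 as reference gave 9 called genes, and 0 to 12 when single samples were left out in turn. A single gene gave 10 with Actb, 12 with Gapdh, 8 with Polr2a or Tbp, 7 with Hprt1 or Ipo8 and 6 with B2m or Pgk1. Gusb alone gave 33, of which 26 were lower and 7 higher, and Tfrc alone gave 3. Apart from that with Gusb, these counts lay inside the range that leaving out single samples gave. References also differed in noise: the median SE over the panel was 0.351 with the mean of the 10 and 0.507 with Tfrc. The median difference of the panel, -0.11 with the mean of the 10, became -0.46 with Gusb and -0.62 with Tfrc, against 0.25 with B2m and -0.05 with Hprt1. With Gusb 8 of the 9 genes called with the mean of the 10 were called, with Hprt1 7 and with Tfrc 3. S100a8 was higher with each reference, by 5.68 (Tfrc) to 6.55 (B2m) log2 units.

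For DNBS alone against healthy the mean of the 10 called 1 gene, Nos2, the inducible nitric oxide synthase. Gusb alone called 12, of which 7 were lower, Actb 8, Gapdh, Pgk1 and Tfrc 5 each, B2m, Hprt1 and Ipo8 1 each, and Polr2a and Tbp 0. With Polr2a and Tbp as reference the panel's median difference was 0.08 each, and with Gusb -0.36. With the mean of the 10 kept, leaving out single samples in turn gave 0 to 9 in this comparison, and Gusb alone lay outside that range. The order of the references by count was not tested.

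Genes of the pathways around 4 members were few on this panel. Beside B2m, 2 of 11 class I presentation genes were present and neither passed: H2-Q10 differed from healthy by -1.09 ± 0.48 log2 units (adjusted p = 0.250) and the lipid-presenting Cd1d1 by -0.04 ± 0.42. Beside Tfrc, 3 of 9 iron and haem genes were present. Ltf, the iron-binding lactoferrin of neutrophil granules, passed as given above, while the haem oxygenase Hmox1 (1.32 ± 0.43; adjusted p = 0.138) and Trf, the transferrin that Tfrc binds (0.02 ± 0.39; 0.993), did not. Beside the glycolytic genes, 2 of 7 hypoxia genes were present: Hif1a, the oxygen-sensitive transcription factor subunit, rose by 1.20 ± 0.28 (adjusted p = 0.0382), and its target Vegfa differed by -0.15 ± 0.27 (0.841). Hif1a passed in 6 of 16 fits with a sample left out, with an adjusted p up to 0.198 and differences of 1.01 to 1.35, and did not pass without any 1 of the 4 healthy samples, DNBS_CEC sample 1, DNBS_Nissle sample 1 or 4, or DNBS sample 3, 4 or 5. Gapdh and Pgk1, targets of the same factor, differed by -0.14 and 0.18.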

How the data were processed

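Colonic mucosa RNA of 16 samples (4 groups of 4) was measured by TaqMan OpenArray quantitative PCR. RNA was isolated with the mirVana kit and had an average integrity number above 9, per the labels' protocols. The authors deposited raw cycle thresholds (Ct), recorded here under the unit other. Per the file headers they form 1 table of 648 assays, in which 40 stands for no amplification. How thresholds were set is not given in the sources used here, and how many molecules a Ct stands for is not known.

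Assays of a gene were averaged, and a Ct above 28 was taken as missing. Genes detected in at least 3 of 4 samples of every group (469) were fitted with limma 3.58.1 (lmFit, eBayes) in R 4.3.3, with all 16 samples in a single model, on raw Ct and on Ct subtracted from a reference: the mean of the other 9 housekeeping genes for a member, and of all 10 for any other gene. P-values were adjusted by the Benjamini-Hochberg method per contrast over all 469 genes, with a threshold of 0.05. Contrasts are the group named first minus the other. Exact permutation tests used scipy 1.17.1. The fit was tested on simulated data.

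The 10 members and the gene lists were chosen with earlier results of these data known. The text names all members, the 3 non-members closest to their mean, up to 5 called genes per contrast with the lowest p, and list genes where called or where a member's result turns on them. Camp, Krt8 and the uncalled list genes given with values were added after their values were seen. Alternatives changed the samples, filled-in and short values, assays, detection limit, filter, reference, normalization and variance model. Single assays of Gusb and Hprt1, leaving out DNBS_CEC sample 2 with DNBS_Nissle sample 4, and the spread within groups without healthy sample 3 or without filled-in assays were chosen after seeing the data. Some other control genes on the panel are not reported by name. Genome positions are not given, since the table names no build.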

Additional observations from a re-analysis of the deposited data

Results flagged for a closer look

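Among 80 sets of 4 samples (10 genes, 4 groups, raw Ct and level relative to the other 9), 3 held a sample far from the other 3 by Dixon's criterion, where chance gives about 1 in 20. Polr2a in DNBS_CEC sample 2 had a Ct of 20.83, with the other DNBS_CEC samples at 19.74 to 19.92. Tbp in healthy sample 3 had a Ct of 22.65, with the other healthy samples at 22.04 to 22.11. Actb relative to the other 9 stood at 6.01 in DNBS sample 3, with the other DNBS samples at 5.20 to 5.32.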

How the results depend on the processing

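No called value changed its direction under any alternative. Of the uncalled DNBS-treated against healthy differences, B2m turned sign in 2 of 25 alternatives in raw Ct, and Tbp in 7, Hprt1 in 3 and Ipo8 and Pgk1 in 1 each on the relative scale. In raw Ct the count of members called for DNBS-treated against healthy, 1 (Gusb), was 0 to 1 when samples were left out in turn. It was 0 without healthy sample 3 and DNBS_Nissle sample 1, with values of few decimals missing, at a detection limit of 26 (adjusted p of Gusb 0.221, 0.0545 and 0.0517), and, chosen after seeing the data, without DNBS_CEC sample 2 and DNBS_Nissle sample 4 (0.0506) or with the Gusb assay Mm01197698_m1 alone (0.111). For DNBS_Nissle against healthy the count was 0, and 0 to 1 when samples were left out: Gusb passed without DNBS_CEC sample 2, DNBS_Nissle sample 5 or DNBS sample 3. It was 1 with no filter on low values, with eBayes with trend and robust, and with the Gusb assay Mm03003537_s1 alone. The other member counts stayed at 0 in the fits made, and the mean M lay between 0.453 and 0.524 when samples were left out.

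With 1 gene as reference the panel counts were 33 (Gusb) and 3 (Tfrc), against 9 with the mean of the 10, for DNBS-treated against healthy. For DNBS against healthy they were 8 (Actb), 5 (Gapdh), 12 (Gusb), 5 (Pgk1), 0 (Polr2a), 0 (Tbp) and 5 (Tfrc), against 1. Panel counts rest on single samples: leaving out samples in turn gave 0 to 26 for DNBS-treated against healthy in raw Ct (17 with all) and 0 to 12 on the relative scale (9 with all). They were 6 in raw Ct at a detection limit of 26, and 32 and 17 on the 2 scales with no filter. On the relative scale quantile normalization gave 15, and leaving out DNBS_CEC sample 2 and DNBS_Nissle sample 4 gave 1. For DNBS_Nissle against healthy (18 in raw Ct, 10 on the relative scale) leaving out samples in turn gave 0 to 48 and 0 to 17, a detection limit of 26 gave 5 and 4, and a fit to the groups compared alone gave 41 and 23. With filled-in values missing it was 9 in raw Ct. For DNBS against healthy (1 on both scales) leaving out samples gave 0 to 12 and 0 to 9. No gene passed in any group comparison on either scale without healthy sample 3 alone, or without it and DNBS_Nissle sample 1. The causes were not tested.

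The replicate numbers were not used to pair the samples in the main fit. Correlations of deviations lay between -0.50 and 0.34 in 10 same-numbered pairs (median -0.12). In 86 pairs with different numbers they lay between -0.51 and 0.65 (median -0.01). So few same-numbered pairs cannot exclude a pairing. With the number as a replicate block, 1 member was called in raw Ct for DNBS-treated against healthy and 0 in every other comparison, as without it. On the relative scale the DNBS-treated against healthy differences had SEs of 0.15 to 0.34, with 4 samples a group. Changes well under 1 log2 unit thus cannot be settled for any of the 10 genes. For B2m and Tfrc the 95% confidence interval reached -1.11 and 1.29, so a change over 1 log2 unit lies inside it.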
